A study of Mus musculus with 36 samples.

Results

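The 43 genes described here are cilium and centriole genes, read on arrays of mouse hypothalamus. They were chosen by symbol, as the genes with a transcript cluster of their own whose name is that of a numbered axonemal dynein heavy chain (Dnah), an intraflagellar transport gene (Ift) or a Bardet-Biedl syndrome gene (Bbs), together with Mks1, Ttc21a, Ttc21b, Ttc30b, Odf3b, Cep44, Tctn2, Tmem67, B9d1 and B9d2. They made up 43 of the 18820 genes that had a cluster of their own on the array, and fell into 11 dynein heavy chains, 17 intraflagellar transport genes, 8 Bardet-Biedl genes, 5 transition zone genes and 2 others. The set was selected on a readout of these arrays, and Mks1, Odf3b and Dnah12 in it had been named for their group differences; which contrast led to the other symbols is not stated, so all 5 comparisons with Control are taken as used by the choice. The differences between groups are therefore given as a description, and nothing is supported with them. The sequence in front of each gene did not enter the choice. Whether variation between arrays of the same group entered it is not stated.

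Hypothalamic RNA from male C57BL/6 mice was hybridised to Affymetrix Mouse Gene 1.1 ST arrays, 1 array per mouse, 5 hours after a single intraperitoneal injection of 50 µl. The question was how inflammatory cytokines in the circulation change hypothalamic expression. The 6 groups held 6 arrays each. Control mice received saline and TNF mice 15 pg of TNFα (a group labelled TNFa low). IL-6 was given at 50 pg (IL-6 Low) or 800 pg (IL-6 High), and both doses were also given together with 15 pg of TNFα (groups named TNF + IL-6 Low and, at the higher dose, TNF + IL-6 High). All mice were housed singly and carried no named allele. Their age was not given in the sources used here. TNF replicate 4 stood apart, with a median correlation of 0.27 with the other arrays, against 0.97 to 0.99 for each of the others, and was left out, so that TNF had 5 arrays and the analysis 35. Values were log2 intensities after robust multi-array averaging (RMA). A gene was tested if its intensity was over 20 on at least 3 arrays, which 15049 genes and 42 of the 43 cilium genes did. Dnah17 did not, with log2 values between 3.73 and 4.31, and Dnah8 did so on 7 arrays only.

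Cilia are hair-like extensions of the cell surface around a core of microtubules, the axoneme. In the hypothalamus, ependymal cells lining the third ventricle carry motile cilia, which beat by means of axonemal dyneins and move cerebrospinal fluid. Neurons and astrocytes carry a single immotile primary cilium, which holds receptors for feeding-related peptides, and loss of the Bardet-Biedl proteins causes obesity in humans and mice. Intraflagellar transport particles carry cargo along the axoneme of both kinds, and the transition zone at the base controls what enters. Ciliary genes are driven by RFX transcription factors, which bind the X-box, and in motile ciliated cells also by FOXJ1.

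The windows around the start sites, from 250 bases before to 50 bases after, were searched for the X-box because RFX factors are shared regulators of both kinds of cilium. RefSeq windows on the GRCm38.p6 build were at hand for 37 of the 43 genes, and Dnah3, Ift80, Ift81, Ift122, Ttc30b and Tmem67 had none. The X-box is a pair of arms that mirror each other, and its strongest arm reads GTTGCC. This arm, on either strand, was in the windows of 15 of the 37 genes (40.5%) and of 3821 of all 27025 genes with a window (14.1%). It was in 4 of 4 transition zone genes, 6 of 13 intraflagellar transport genes, 3 of 8 Bardet-Biedl genes, 2 of 10 dynein heavy chains and neither of the other two genes. A pair of arms, GTTNCC followed by GGNAAC with 0 to 3 bases between them, was in the windows of 3 genes (8.11%), against 253 of all genes (0.936%). The pair reads the same on both strands, and its first arm overlaps GTTGCC in each of the 3. The stretches are shown because they hold Mks1, the gene with the largest difference in TNF, and the other two paired matches, followed by 2 genes in which arms matched without a pair. Dnah10 held GTTGCC at 2 places, of which 1 is shown. Capitals mark the match.

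Mks1: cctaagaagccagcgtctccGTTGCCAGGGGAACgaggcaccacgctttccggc
Bbs7: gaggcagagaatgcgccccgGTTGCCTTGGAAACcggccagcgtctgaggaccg
Ift57: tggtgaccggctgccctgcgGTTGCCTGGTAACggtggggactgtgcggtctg
Ift27: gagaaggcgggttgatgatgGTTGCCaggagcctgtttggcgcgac
Dnah10: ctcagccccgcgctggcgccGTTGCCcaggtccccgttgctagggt

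These stretches lie at chr11:87853171-87853224 on the plus strand for Mks1, chr3:36613477-36613530 on the minus strand for Bbs7, chr16:49699214-49699266 on the plus strand for Ift57, chr15:78174065-78174110 on the minus strand for Ift27 and chr5:124725045-124725090 on the plus strand for Dnah10. Counted so that the annotated start is base 0, the match began at base -24 in Mks1, -121 in Bbs7, -60 in Ift57, -9 in Ift27 and -20 in Dnah10. A FOXJ1-like word, GTAAACA on either strand, was in the window of 1 of the 37 genes, Dnah17 (2.70%), against 4.05% of all genes. Such matches are letters in a window and are not measured binding sites.

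In TNF the dynein heavy chains were nearly all below Control, while most intraflagellar transport genes were not. No cilium gene and none of the 15049 genes tested (0%) passed an adjusted p of 0.05 in TNF against Control (limma, Benjamini-Hochberg over all genes tested), and the smallest adjusted p of a cilium gene was 0.315, for Mks1. At an unadjusted p under 0.05, 5 of the 42 cilium genes were lower (Mks1, Dnah12, Dnah1, Odf3b and Dnah2) and 2 higher (Ttc30b and Ift74), beside 2.13% of all genes lower and 3.16% higher. After centring each array on its median the split was 10 lower and 1 higher, beside 3.22% and 2.89% of all genes. Because the choice of genes used these contrasts, nothing is read from such shares, here or in the other groups. The median log2 difference over the 42 genes was -0.04, against 0.01 over all genes tested. Of the 42, 22 lay below 0, beside 44.6% of all genes. By role the median was -0.18 for the dynein heavy chains, -0.06 for the transition zone genes, 0.03 for the Bardet-Biedl genes and 0.04 for the intraflagellar transport genes.

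Mks1 (Entrez gene 380718) encodes a protein of the transition zone whose loss causes Meckel syndrome. Its log2 intensities in Control ran from 5.53 through a median of 5.69 to 5.98. The 5 TNF arrays read 5.42, 5.15, 5.40, 5.40 and 5.32, so every TNF array was below every Control array. The means were 5.71 ± 0.15 in Control (SD, n = 6) and 5.34 ± 0.11 in TNF (SD, n = 5), a difference of -0.37 with a standard error of 0.08. Leaving out 1 array at a time moved it between -0.41 and -0.32. In the other treated groups the values overlapped Control, with differences of -0.11 in IL-6 High, -0.19 in IL-6 Low, -0.25 in TNF + IL-6 High and, at the lower dose, -0.19 in TNF + IL-6 Low, each with a standard error of 0.08.

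Of the 10 dynein heavy chains tested, which are the motors of axonemal arms, 9 were below Control in TNF, beside 44.6% of all genes. This count was 9 as well after centring each array on its median and after quantile normalization. It was 7 with TNF replicate 4 included. It was 8 without TNF replicate 5. The exception was Dnah8, at 0.08. Dnah12 (Entrez gene 110083), an inner arm heavy chain, had the largest difference. Its Control arrays ran from 5.88 through 6.21 to 6.44, and its TNF arrays read 5.80, 6.12, 6.02, 5.62 and 5.68. The groups overlapped, with 3 TNF arrays below the lowest Control array, and differed by -0.34 with a standard error of 0.12.

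Dnah9 and Dnah5, outer arm heavy chains, differed by less than Dnah12 in TNF. Dnah9 differed by -0.23 with a standard error of 0.11, with TNF arrays between 5.99 and 6.36 and Control arrays between 6.29 and 6.47. Dnah5, whose loss causes primary ciliary dyskinesia, differed by -0.14, with TNF arrays between 5.38 and 5.84 and Control arrays between 5.73 and 5.84. Dnah1 and Dnah2, inner arm heavy chains named after their values were seen, differed by -0.27 and -0.18. With TNF replicate 4 included, the difference was -0.13 for Dnah1, 0.03 for Dnah2 and -0.43 for Dnah12.

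Dnah3, Dnah6, Dnah7b, Dnah8, Dnah10 and Dnah17 had more than 1 transcript cluster, 20 in all. In TNF 19 of the 20 were below Control and 1 above. The exception was the cluster that stands for Dnah8, at 0.08, while its dimmer cluster was at -0.11. The 3 clusters of Dnah6 were at -0.09, -0.11 and -0.15, and the 3 of Dnah7b at -0.20, -0.20 and -0.07. The 5 clusters of Dnah10 lay between -0.39 and -0.09. Clusters of a gene come from the same arrays and are not separate samples, and Dnah7b has near-identical neighbours in its family, so its probes may also take up their transcripts. The intermediate chains were not among the genes because the annotation calls them Dnaic1 and Dnaic2. Their TNF differences were -0.12 and -0.09, with standard errors of 0.10 and 0.13.

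**Figure D1:**
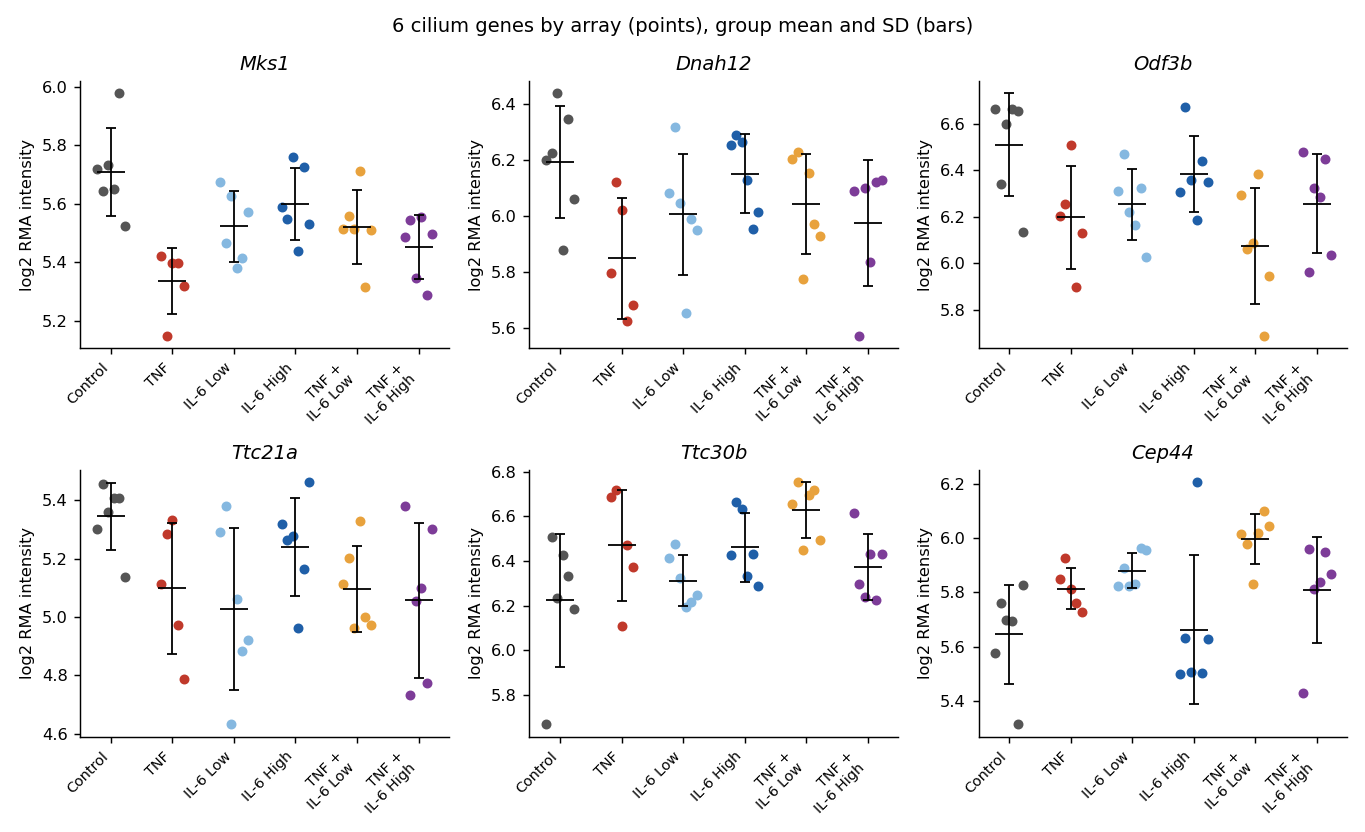
Log2 RMA intensity (vertical axis) of Mks1, Dnah12, Odf3b, Ttc21a, Ttc30b and Cep44 in the 6 groups (horizontal axis). Each point is 1 array, the long tick is the group mean and the bar 1 SD, with 6 arrays per group and 5 in TNF. Mks1 in TNF lies below all Control arrays, between 5.15 and 5.42, and Cep44 in TNF + IL-6 Low lies just above all of them.

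Odf3b (Entrez gene 70113) is a relative of the outer dense fibre proteins of sperm tails. Its Control arrays ran from 6.14 through 6.63 to 6.67, and its TNF arrays read 6.21, 6.25, 6.51, 5.90 and 6.13. The groups overlapped, with Control replicates 6 and 2 (6.34) below the highest TNF array, and differed by -0.31 with a standard error of 0.12. In TNF + IL-6 Low the arrays ran from 5.69 through 6.07 to 6.38, a difference of -0.43 with a standard error of 0.12. Without Control replicate 6, the lowest Control array, these differences were -0.39 and -0.51.

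Among the 17 intraflagellar transport genes 12 were above and 5 below Control in TNF. Ttc30b (Entrez gene 72421), a subunit of the particle that moves towards the tip, had the largest difference above Control. Its Control arrays ran from 5.67 through 6.28 to 6.51, and its TNF arrays read 6.69, 6.72, 6.11, 6.47 and 6.37, with wide overlap. The difference was 0.25 with a standard error of 0.11, and 0.13 without Control replicate 1, the lowest array. Ift74, a core subunit of the same particle, read 6.72, 6.57, 6.26, 6.49 and 6.35 in TNF and between 6.17 and 6.35 in Control, a difference of 0.22 with a standard error of 0.10. Ttc21a, of the particle that returns to the base, was on the other side of Control. It read 5.11, 5.28, 5.33, 4.97 and 4.79 in TNF and between 5.14 and 5.46 in Control, a difference of -0.25 with a standard error of 0.12. Ttc21b, its close relative, differed by 0.05, and Ift140, of the same particle, by -0.12.

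The Bardet-Biedl genes were near Control in TNF, with differences between -0.11 for Bbs9, a BBSome subunit, and 0.16 for Bbs10, which encodes a chaperonin-like protein that helps assemble the BBSome. Bbs12, another chaperonin-like gene, differed by -0.07 and Bbs4, a BBSome subunit, by 0.07. Of the transition zone genes other than Mks1, B9d1 differed by 0.02, B9d2 by -0.04, Tmem67 by -0.06 and Tctn2 by -0.19.

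**Figure D2:**
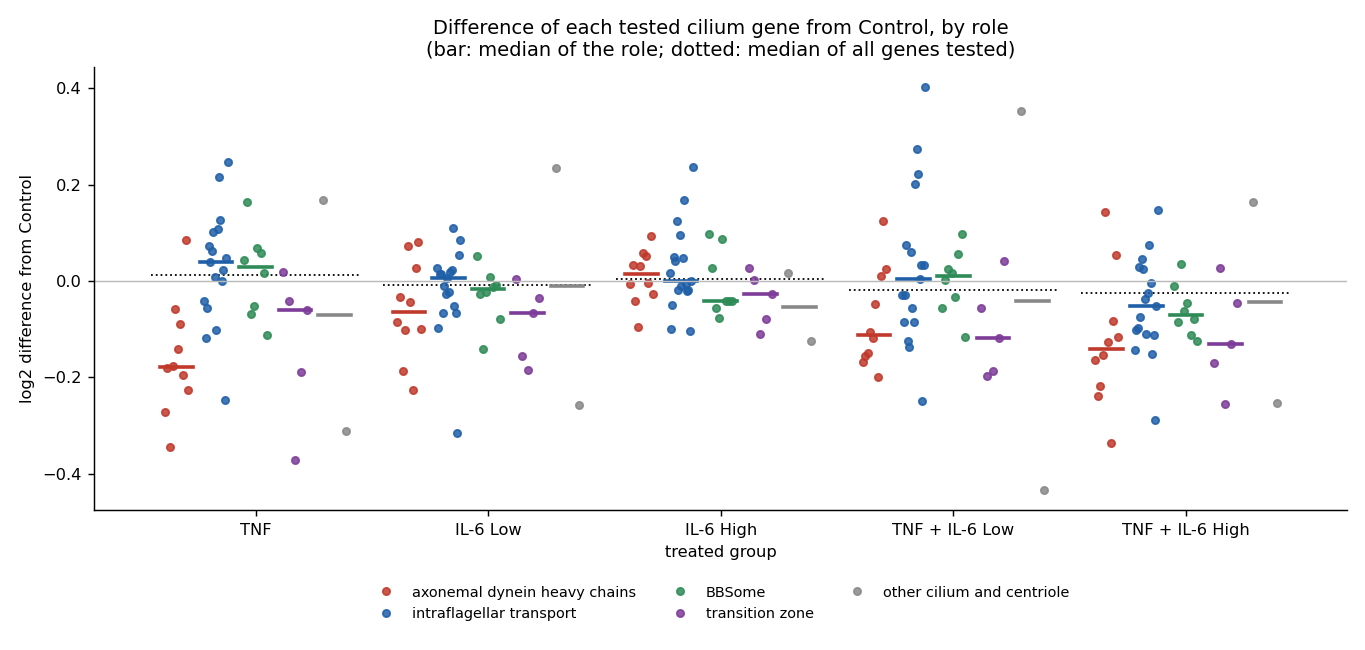
Log2 difference from Control (vertical axis) of each of the 42 cilium genes tested in the 5 treated groups (horizontal axis), coloured by role. The coloured bars are the medians of the roles and the dotted lines the medians of all 15049 genes tested. In TNF the dynein heavy chains, with a median of -0.18, sit below the intraflagellar transport genes, with a median of 0.04.

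IL-6 alone left most cilium genes near Control. In IL-6 Low none of the cilium genes and 0% of all genes passed the adjusted threshold. At an unadjusted p under 0.05, 3 cilium genes were lower and 1 higher, beside 1.01% and 0.392% of all genes. The 3 were Ttc21a at -0.32, Odf3b at -0.26 and Mks1 at -0.19, and the 1 was Cep44, a centriole protein, at 0.23. Ttc21a ran from 4.63 through 4.99 to 5.38 in this group. In IL-6 High again none of the cilium genes and 0% of all genes passed, with 0 lower and 1 higher at an unadjusted p, beside 1.40% and 0.678%. The 1 was Ttc30b, at 0.24, with arrays from 6.29 through 6.43 to 6.66, and 0.13 without Control replicate 1. The dynein heavy chains had a median of -0.06 in IL-6 Low, with 7 of 10 below 0, beside 54.1% of all genes. At the higher dose their median was 0.01, with 5 of 10 below 0, beside 47.4%.

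TNF + IL-6 Low held the largest differences in both directions. No cilium gene and 0% of all genes passed the adjusted threshold (smallest adjusted p of a cilium gene 0.511, limma). At an unadjusted p under 0.05, 3 cilium genes were lower (Odf3b, Ttc21a at -0.25 and Mks1) and 5 higher, beside 5.47% and 4.11% of all genes. After centring each array on its median the split was 1 lower and 6 higher, beside 3.38% and 8.91% of all genes. The 5 were Ttc30b at 0.40, Cep44 at 0.35, Ift74 at 0.27, Ift80 at 0.22 and Ift57 at 0.20, the last named after its values were seen. Cep44 (Entrez gene 382010) ran from 5.31 through 5.70 to 5.83 in Control and from 5.83 through 6.02 to 6.10 in TNF + IL-6 Low, where the lowest array was just above the highest Control array. Its difference had a standard error of 0.10 and was 0.29 without Control replicate 5. Ttc30b ran from 6.45 through 6.68 to 6.76, and its difference was 0.29 without Control replicate 1. Ift80, a subunit of the tip-bound particle, ran from 7.40 through 7.62 to 7.64 and overlapped Control, which had a median of 7.36.

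TNF + IL-6 High had the most cilium genes below Control, 32 of 42, with a median of -0.08 against -0.02 over all genes. Of all genes tested 62.3% were below Control there, and 29 of the 42 were after median centring. No cilium gene and 0% of all genes passed the adjusted threshold. At an unadjusted p under 0.05, 6 were lower and 0 higher, beside 1.26% and 0.797% of all genes. Besides Mks1, Ttc21a at -0.29 and Odf3b at -0.25, they were Dnah6 at -0.34, B9d1 at -0.17 and, named after its values were seen, Dnah10 at -0.24. Dnah6, an inner arm heavy chain, ran from 5.36 through 5.63 to 5.97 in this group and from 5.80 through 5.94 to 6.26 in Control. The dynein heavy chains had a median of -0.14, with 8 of 10 below 0. Without TNF + IL-6 High replicate 2 the count of genes lower at an unadjusted p was 3, beside 1.43% of all genes, and without replicate 1 of that group it was 8, beside 2.52%.

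The 5 comparisons share the 6 Control arrays, so the same direction in several of them is not repeated evidence. With that said, 10 of the 42 genes were below Control in all 5 groups, among them Mks1, Dnah12, Ttc21a, Odf3b, Ift140 and Bbs9, and 5 were above it in all 5, Dnah8, Ift20, Ift74, Ttc30b and Cep44. Single arrays decide some of these signs: without Control replicate 1 the IL-6 Low difference of Ttc30b was -0.03, and without IL-6 High replicate 4 that of Cep44 in its group was -0.09. Median centring gave 9 and 7 genes, and quantile normalization 10 and 6. The matching counts over all genes were not made. An F test over the 6 groups passed the adjusted threshold for no gene (0%), and at an unadjusted p under 0.05 for 8 cilium genes, beside 3.01% of all genes. The departure of the combined groups from the sum of the single injections passed for no gene at either IL-6 dose (limma). At an unadjusted p under 0.05 it did for 3 of the 42 cilium genes at the low dose and 2 at the high dose, and for 494 and 603 of all genes.

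Genes of other ciliary parts, from lists written with the earlier results known, were set beside these. Of 57 tested genes of the motile cilium and of ependymal cells, 42 were below Control in TNF, with a median of -0.04, and 19 in IL-6 High, with a median of 0.06. The count was 46 in IL-6 Low (median -0.07), 50 in TNF + IL-6 High (median -0.10) and 46 in TNF + IL-6 Low (median -0.07). Between 0 and 2 of them were lower at an unadjusted p in each group and none higher, among them Ccdc114, a docking protein of dynein arms named after its values were seen, at -0.24 in TNF and -0.28 in TNF + IL-6 Low. Foxj1 itself differed by 0.02 in TNF, with a standard error of 0.11. The 12 further transition zone genes were all below Control in TNF + IL-6 High, with a median of -0.08, and the 17 further intraflagellar transport genes had medians between -0.04 and 0.03. The 14 genes of neuronal primary cilium signalling had medians between -0.04 and -0.01.

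The dissected tissue varied between arrays. The neuropeptide genes Avp and Oxt read at least 8.34 and 8.87 on every array. Pomc lay between 5.65 and 6.61 in Control. It ran from 5.16 to 11.45 in TNF + IL-6 Low, with a median of 5.905, and reached 7.82 in IL-6 High. Of 12 hypothalamic genes 11 were below Control in TNF, with a median difference of -0.15, and 3 in IL-6 High, with a median of 0.07. In IL-6 Low 11 were below (median -0.16), in TNF + IL-6 High 10 (median -0.16) and with the lower dose of IL-6 and TNF together 10 (median -0.30). The summed intensity of 6 anterior pituitary genes ran from 125 to 697 in Control and up to 24460 in TNF + IL-6 Low. The sum of 14 meningeal fibroblast genes ran from 1206 to 4075 in Control and from 1228 to 2531 in TNF, with 13 of the 14 below Control in TNF and a median difference of -0.44. All 14 were below Control in IL-6 High (median -0.63), in IL-6 Low (median -0.26) and with TNF and low IL-6 together (median -0.46), as were 13 in TNF + IL-6 High (median -0.17). The sum of all 58 listed motile cilium and ependymal genes, 1 of them below the intensity minimum, ran from 4164 to 5373 in Control and from 3995 to 5139 in TNF. The sum of 13 choroid plexus genes ran from 393 to 785 in Control and from 382 to 644 in TNF. Their part in the differences of the cilium genes was not tested. With whole tissue on the array, fewer cells of a type and less RNA per cell cannot be told apart.

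Between arrays of the same group, more of the cilium genes had a slope above 0 on Foxj1 than of all genes. The share that passed the adjusted threshold was similar. Foxj1, the master regulator of motile cilia, served as a marker of ependymal cells, and its slope was fitted beside the group means, so that no difference between groups enters. Foxj1 had a within-group SD of 0.18, and its farthest deviations were those of TNF replicate 6 at -0.45, IL-6 High replicate 5 at -0.36 and TNF + IL-6 High replicate 1 at 0.26. Most arrays with a low median over all clusters had Foxj1 above its group mean. The median was 5.53 in TNF replicate 5 and 5.54 in TNF + IL-6 High replicate 1. It was 5.57 in IL-6 High replicate 3 and 5.58 in Control replicate 5. Their Foxj1 deviations were 0.20, 0.26, 0.24 and 0.19. IL-6 Low replicate 2, at a median of 5.61, and IL-6 High replicate 2, at 5.62, had deviations of 0.18 and 0.24. TNF replicate 2, TNF + IL-6 Low replicate 1 and TNF + IL-6 High replicate 5, each at 5.62, had 0.14, 0.21 and 0.09. TNF replicate 6 and IL-6 High replicate 5 both had a median of 5.67, but IL-6 Low replicate 4, at -0.26, had 5.62. The part of the array level in the slopes was not tested. The slope was above 0 for 35 of the 42 cilium genes (83.3%) and for 60.0% of all genes, and its median was 0.23 log2 units per log2 unit of Foxj1 against 0.08 over all genes. It passed the adjusted threshold with a slope above 0 for 6 of the 42 genes (14.3%), beside 13.9% of all genes, and with a slope below 0 for none, beside 4.47% of all genes. The share of genes passing on Foxj1 was thus near that of all genes, and the share with a slope above 0 was not tested. After median centring 2 cilium genes passed with a slope above 0, beside 4.15% of all genes, and after quantile normalization 3, beside 5.97%. With the replicate number added to the fit as a block, 1 passed with a slope above 0, beside 3.795% of all genes. For Ttr, a choroid plexus marker, the slope was above 0 in 21 of the 42 genes (50%) and 59.8% of all genes. For Sstr3, a receptor of neuronal primary cilia, it was above 0 in 10 of the 42 (23.8%) and 58.1% of all genes, with a median of -0.13 against 0.04. Neither slope passed for any gene (0 of 15048 each by limma, with 467 and 611 at an unadjusted p under 0.05 and 1 and 2 of the cilium genes).

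The genes that passed came from 3 of the roles. Bbs9 had a slope of 0.57 with a standard error of 0.13 (limma adjusted p = 0.00349), Dnah6 of 0.73 with 0.20 (adjusted p = 0.0106) and Dnah5 of 0.44 with 0.13 (adjusted p = 0.0158). Ift122, of the base-bound particle, had a slope of 0.40 (adjusted p = 0.0275), Bbs4 of 0.39 (adjusted p = 0.0356) and Ift27, a small GTPase of the tip-bound particle, of 0.49 (adjusted p = 0.0499). TNF replicate 6, which had the lowest Foxj1 deviation, also had the lowest of Dnah6, at -0.50, and was at -0.28 for Bbs9, -0.28 for Dnah5 and -0.24 for Ift122. Without that array Bbs9 alone passed, with a slope of 0.55 (limma adjusted p = 0.0185), while 10.0% of all genes passed above 0, and the slope of Dnah6 was 0.58 (adjusted p = 0.0836). Without TNF + IL-6 High replicate 1, IL-6 High replicate 3 or IL-6 Low replicate 4, 3 genes (7.14%) passed in each case, beside 8.35%, 11.04% and 10.2% of all genes above 0. Without the 2 arrays farthest from the median of Foxj1, 4 genes passed, Dnah6, Ift27 and Bbs4 among them, beside 10.3% of all genes above 0, and Bbs9 had a slope of 0.40 (adjusted p = 0.109).

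**Figure D3:**
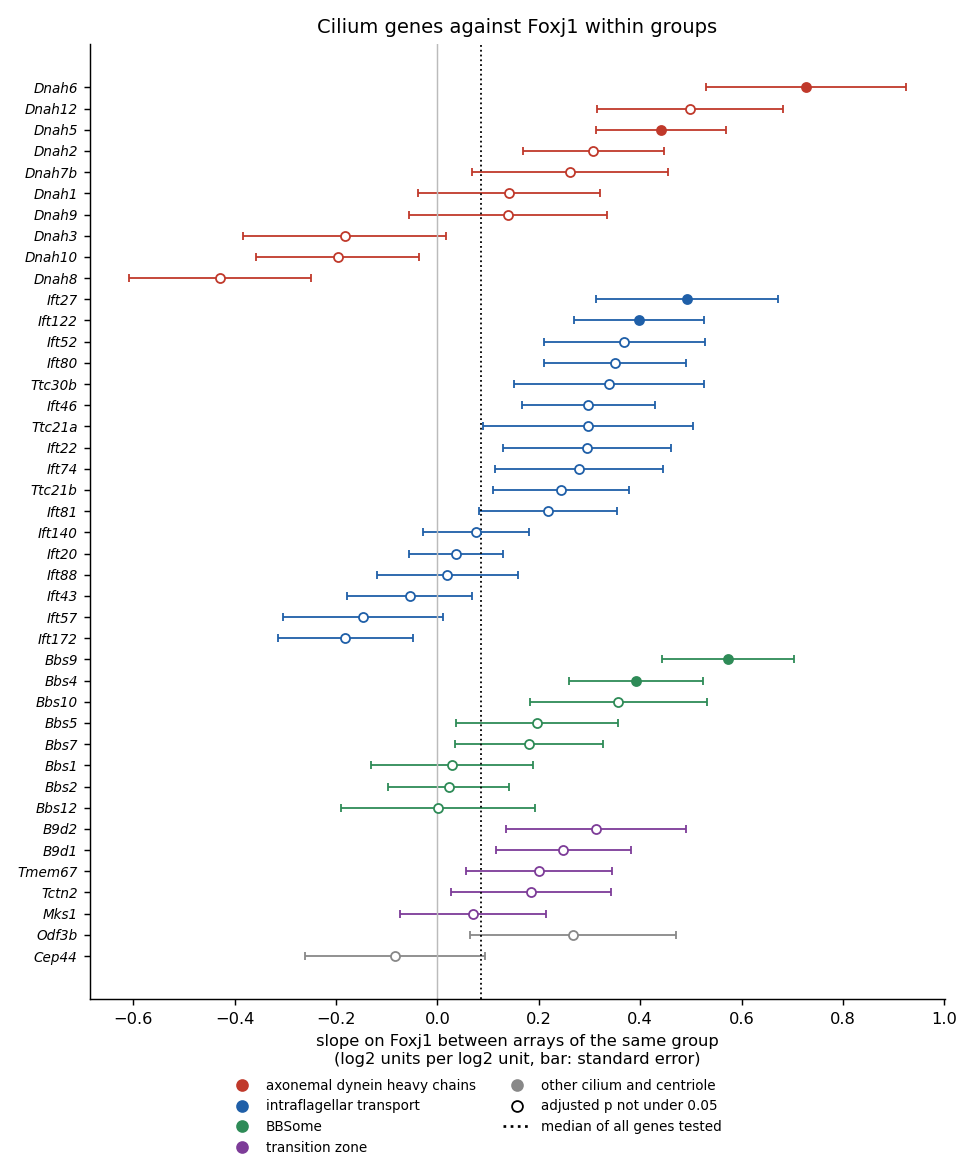
Slope on Foxj1 between arrays of the same group (horizontal axis, log2 units per log2 unit, bars are standard errors) of the 42 cilium genes, ordered by role and slope. Filled points passed an adjusted p of 0.05, and the dotted line is the median over all genes tested, 0.08. Points lie right of 0 for 35 genes, and Dnah6 has the highest slope, 0.73.

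Genes with large group differences had both steep and flat slopes. Dnah6, with the largest difference in TNF + IL-6 High, also had the steepest slope. Mks1 had a slope of 0.07 with a standard error of 0.14 (limma adjusted p = 0.774), Odf3b of 0.27 with 0.20 (adjusted p = 0.371), Ttc21a of 0.30 with 0.21 (adjusted p = 0.326) and Cep44 of -0.08 with 0.18 (adjusted p = 0.780). Dnah12, whose TNF difference was second to that of Mks1, had a slope of 0.50 with 0.18 (adjusted p = 0.0538). With Foxj1 as a further term in the fit, 8 cilium genes were lower in TNF at an unadjusted p, beside 2.43% of all genes. In that fit 9 of 10 dynein heavy chains were below Control. Foxj1 had means of 5.68 in TNF and 5.65 in Control, so the term could move these differences little, and nothing is read from it. All 8 Bardet-Biedl genes and all 5 transition zone genes had slopes above 0, the lowest that of Bbs12, at 0.00. The slopes of B9d2, B9d1 and Tmem67 were 0.31, 0.25 and 0.20, and that of Bbs10 0.36. Ift80, at 0.35, and Ift74, at 0.28, lay between the extremes of their role, and Ift140 and Ift88 were at 0.08 and 0.02. Dnah8, at -0.43 (adjusted p = 0.0864), had the lowest slope of all.

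**Figure D4:**
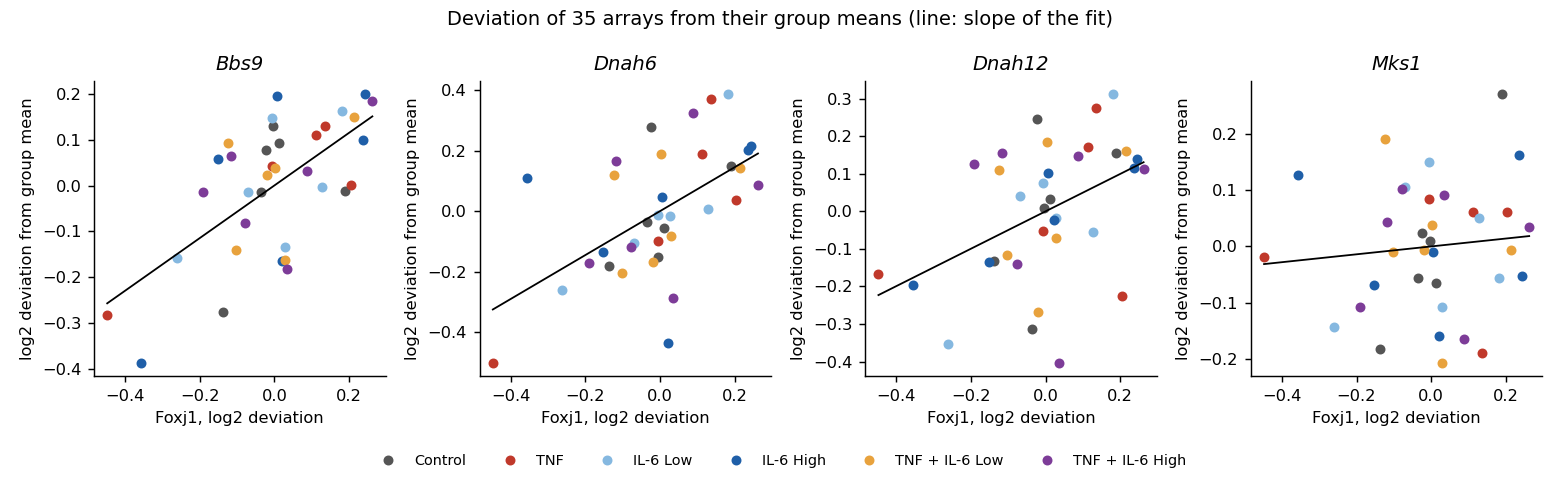
Deviation of Bbs9, Dnah6, Dnah12 and Mks1 from the group mean (vertical axes, log2) against that of Foxj1 (horizontal axis, log2) on 35 arrays, coloured by group, with the fitted slope as a line. TNF replicate 6 is the point farthest left, at -0.45, and the line is flat for Mks1, with a slope of 0.07.

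The same slope was measured for other lists. Of 56 motile cilium and ependymal genes other than Foxj1, 19 passed with a slope above 0 and 53 lay above 0, with a median of 0.38, among them Iqcg at 1.00 (adjusted p = 0.000682) and Tppp3 at 1.25 (adjusted p = 0.0019), the one a subunit of the regulatory complex that links axonemal doublets and the other a tubulin-binding protein. Of 17 further intraflagellar transport genes 5 passed, such as Wdr35 at 0.58 and Wdr34 at 0.80. Slopes above 0 were not confined to ciliary lists. Of 8 astrocyte genes 3 passed, with Aldh1l1 at 0.79, of 12 hypothalamic genes 3 passed, with Gal at 1.18, and of 16 genes of cytoplasmic dynein and dynactin 5 passed. The 5 anterior pituitary genes tested all had slopes below 0, with a median of -0.56, as had 11 of 14 meningeal fibroblast genes. The part of tissue composition in the slopes of the cilium genes was not tested.

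Within groups, the spread between arrays was of the same order in all roles. The median within-group SD was 0.19 for the dynein heavy chains, 0.15 for the Bardet-Biedl genes, 0.14 for the transition zone genes and 0.13 for the intraflagellar transport genes, with 0.17 and 0.21 for the other two genes, against 0.16 over all genes tested and 0.19 over the motile cilium and ependymal list. Single genes ran from 0.08 to 0.23.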

How the data were processed

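Hypothalamic RNA of 36 mice was measured on Affymetrix Mouse Gene 1.1 ST arrays. The authors normalized the arrays by RMA and deposited log2 values for 35556 transcript clusters, whose RMA version was not given in the sources used here. RMA sets probe intensities to a common distribution, so values are relative, and levels of different genes were not compared. Of the clusters, 21218 named 1 gene, 1881 several and 12457 none. The cluster of highest mean stood for a gene. Dnah11 and Tctn1 are named only together with another gene and were left out. Groups came from the sample titles. Group means were fitted with limma 3.58.1 in R 4.3.3 (lmFit, eBayes with intensity trend) over 15049 genes with intensity over 20 on at least 3 of 35 arrays, with Benjamini-Hochberg adjustment and a threshold of 0.05. Slopes added the log2 value of a marker gene to this fit. The fits were tested on simulated data in which each gene varied independently, which does not cover variation shared by many genes on an array. The cilium genes and the lists were chosen with earlier results of these data known. Genes were named as follows: Mks1, Dnah12 and Odf3b, the 2 lower and 2 higher of smallest p in each comparison, and in each role the 3 of smallest and the 1 of largest p for the Foxj1 slope, with up to 3 of smallest p in each list. Avp, Oxt and Pomc were named after their values were seen. Alternatives covered arrays, filter, scaling, variance model, array weights, replicate block, cluster choice and marker gene. The number of arrays limits the precision.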

Additional observations from a re-analysis of the deposited data

Results flagged for a closer look

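In 22 named cilium genes over 6 groups, 132 sets of 5 or 6 arrays were examined for 1 array far from the rest of its group, and 7 had one. Chance alone marks about 1 in 20 such sets. Dnah9 read 7.13 in TNF + IL-6 Low replicate 3, where the other arrays of the group lay between 6.07 and 6.45, and without that array its difference from Control was -0.12 in place of 0.02. Ift27 read 7.29 in TNF + IL-6 High replicate 1, against 6.74 to 6.91 in the rest. Ift88 read 7.35 in IL-6 High replicate 2, against 7.51 to 7.61, and Bbs9 read 8.47 in Control replicate 6, against 8.73 to 8.88. IL-6 High replicate 4 was far from its group in 2 genes, with B9d1 at 6.44 against 6.64 to 6.76 and Cep44 at 6.21 against 5.50 to 5.63. Cep44 also read 5.43 in TNF + IL-6 High replicate 1, against 5.81 to 5.96.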

How the results depend on the processing

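No cilium gene passed the adjusted threshold in any comparison with Control under any alternative run. The median TNF difference of the cilium genes was -0.16 with all 36 arrays, 0.00038 with an intensity minimum of 50, and between -0.061 and 0.013 leaving out 1 array at a time. The TNF + IL-6 Low median was 0.0059 after median centring, and leave-one-out medians ran from -0.041 to 0.016 in IL-6 Low, -0.011 to 0.025 in IL-6 High, -0.104 to -0.058 in TNF + IL-6 High and -0.059 to 0.0043 in TNF + IL-6 Low. The smallest adjusted p of a cilium gene in TNF ran from 0.184 (Control replicate 6 left out) to 0.999 (TNF replicate 2 left out). With TNF replicate 4 included, the TNF difference of Ift74 was -0.012 and that of Dnah2 0.033, and the Foxj1 slope of Dnah2 was -0.13. With Ccdc153, chosen after seeing the data, in place of Foxj1, 7 of the 42 genes (16.7%) passed in either direction, beside 21.1% of all genes. The slope of Dnah8 on it was 0.13. The Foxj1 slope passed in either direction for 10 cilium genes with 36 arrays (28.7% of all genes), 2 after median centring (9.94%), 3 after quantile normalization (12.2%) and 17 with the mean of the motile cilium list as marker (21.1%), against 6 (18.4%) in the fit reported, and for 1 (TNF replicate 6 left out) to 7 leaving out 1 array at a time. Genes lower at an unadjusted p in TNF numbered 3 to 9 leaving out 1 array (1.28% and 3.12% of all genes), and in TNF + IL-6 High 10 with array weights (5.09%). It was not settled whether the replicate numbers pair the arrays. Same-numbered arrays correlated between -0.31 and 0.58 over 85 pairs, with a mean of 0.06 against -0.01 for arrays of other numbers. Of 35 arrays 11 correlated best with their own number. With the replicate block 1 cilium gene passed for the Foxj1 slope, beside 4.64% of all genes in either direction, the smallest adjusted p in TNF was 0.529, and no call against Control was gained. The causes of these shifts were not tested. The slope on Adcy3 was not run, since its clusters name a second gene, and Sstr3, chosen after seeing the data, took its place.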
